A study of Homo sapiens with 34 samples.

Results

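The genes described are 10 AP-1 and immediate early genes, FOS, FOSB, FOSL1, FOSL2, JUN, JUNB, JUND, EGR1, IER2 and IER3, out of 19970 protein-coding genes of the RefSeq table (GRCh38.p14). They were named as a family, with earlier results of these data known. Every called region or summit of RNA polymerase II (Pol II) or acetylated histone H3 lysine 27 (H3K27ac) in each gene or within 50 kb of it was taken. The cells were DLD1, a human colorectal adenocarcinoma line, carrying a tetracycline-inducible transgene for dominant negative TCF7L2. TCF7L2 is the DNA-binding partner of β-catenin in Wnt signalling, and the dominant negative form is known to block its targets. Uninduced cells carried the transgene and received no doxycycline, and induced cells received 1 µg/mL doxycycline for 24 h. Each mark and condition had 2 samples, and 24 RNA-seq samples of the series were not analysed here. Both conditions share 1 transgenic line, and cells without the transgene that received doxycycline were not among the groups used, so an effect of doxycycline itself cannot be told apart from that of the transgene.

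AP-1 is a dimer of a FOS family protein with a JUN family protein, or of JUN proteins with each other, and binds DNA through a basic leucine zipper. Immediate early genes are transcribed within minutes of a growth factor or stress signal from promoters that already hold Pol II, through serum response factor, its ETS partners and CREB, without new protein synthesis. In intestinal epithelium JUN and FOSL1 are known for growth downstream of RAS and Wnt signals. H3K27ac marks active promoters and enhancers.

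The promoters carry matches to the sites of these factors. RefSeq promoter sequences (250 bases before to 50 after the start, GRCh38.p14) were found for 8 of the 10 genes, all but FOSL1 and IER3. The 210 bases before the start are shown for 6 of them, because their core elements differ and in 5 of them the highest Pol II summit lay just after the stretch. The positions are FOS chr14:75278618-75278827 (plus strand), FOSB chr19:45467786-45467995 (plus strand), JUNB chr19:12791276-12791485 (plus strand), JUN chr1:58784048-58784257 (minus strand), JUND chr19:18281623-18281832 (minus strand) and EGR1 chr5:138465269-138465478 (plus strand). Capitals mark a half-site of the cAMP response element (TGACG, or CGTCA on the other strand), the full element in JUND (TGACGTCA), the AP-1-like site of JUN (TGACATCA), CArG boxes, the sites of serum response factor (EGR1), and TATA boxes (TATAAA).
FOS: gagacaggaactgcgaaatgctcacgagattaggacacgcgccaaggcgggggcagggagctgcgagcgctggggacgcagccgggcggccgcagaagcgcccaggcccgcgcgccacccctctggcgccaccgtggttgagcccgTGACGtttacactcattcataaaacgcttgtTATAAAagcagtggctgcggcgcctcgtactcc
FOSB: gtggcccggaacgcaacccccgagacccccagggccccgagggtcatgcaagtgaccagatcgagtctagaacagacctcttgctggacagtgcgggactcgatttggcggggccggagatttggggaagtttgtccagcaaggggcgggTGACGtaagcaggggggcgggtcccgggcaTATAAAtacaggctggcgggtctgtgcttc
JUNB: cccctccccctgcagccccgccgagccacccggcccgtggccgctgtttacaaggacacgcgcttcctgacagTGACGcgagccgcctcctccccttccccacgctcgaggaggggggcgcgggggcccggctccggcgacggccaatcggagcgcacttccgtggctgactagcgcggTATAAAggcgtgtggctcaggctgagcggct
JUN: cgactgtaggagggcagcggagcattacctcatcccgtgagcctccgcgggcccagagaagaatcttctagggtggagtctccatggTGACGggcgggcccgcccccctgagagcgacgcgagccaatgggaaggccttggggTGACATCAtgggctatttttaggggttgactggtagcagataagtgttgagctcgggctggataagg
JUND: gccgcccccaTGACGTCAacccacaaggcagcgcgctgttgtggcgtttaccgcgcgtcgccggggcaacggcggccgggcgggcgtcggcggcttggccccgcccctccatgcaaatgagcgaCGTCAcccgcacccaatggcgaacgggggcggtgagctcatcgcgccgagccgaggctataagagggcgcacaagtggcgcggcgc
EGR1: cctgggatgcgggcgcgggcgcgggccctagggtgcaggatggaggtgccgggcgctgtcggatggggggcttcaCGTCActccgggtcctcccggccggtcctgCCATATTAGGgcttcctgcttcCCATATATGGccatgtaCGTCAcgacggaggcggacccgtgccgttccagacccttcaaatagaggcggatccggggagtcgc

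All 8 promoter windows of 300 bases held a TGACG half-site on either strand, against 25.01% of 27305 promoter windows in the RefSeq table. The full element TGACGTCA, which contains the half-site on both strands, was present only in JUND among the 8 and in 1.98% of all windows. EGR1 alone held CArG boxes, beginning 105 and 83 bases before the start, against 1.29% of all windows. A TATAAA box began 33 bases before the start in FOS, 30 in FOSB and 31 in JUNB, against 12.0% of all windows. JUN alone held TGACATCA (2.71% of all windows), and FOSL2 alone held an AP-1 site TGANTCA with C or G at N (4.92%), which began 4 bases after its first base. The GC box GGGCGG, a site for SP factors, was in 6 of the 8 windows and in 44.6% of all. The TCF sites CTTTGAT and CTTTGAA were in none of the 8, against 2.64% and 4.53% of all windows. These are matches of letters in a short window, with no measurement of factor binding.

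The lists held 78005 H3K27ac regions without induction and 79987 with it, and 57247 and 50665 Pol II regions, on the 22 autosomes and X. Both samples of a condition are served by a single list, so there was no spread between replicates to compute, no test was run, and the differences below are between lists. Fold is the authors' ratio of signal at a summit over the caller's local background, and q is their adjusted p-value of the summit. H3K27ac summits were found at 12 of 12 colorectal epithelial markers without induction and 11 with it. The keratin KRT20 had a fold of 5.09 without induction and no summit with it. Of 14 markers of other cell types, 8 had an H3K27ac summit in both lists. Their folds without induction ran from 10.7 at DCN, a fibroblast gene, to 25.7 at RBFOX3, a neuronal gene, with 19.6 at the endothelial gene VWF. The part of these signals in the results was not tested. Another 5 had no summit of either mark, the fibroblast collagen gene COL1A2, the liver genes ALB and APOA2 and the muscle myosin gene MYH7 among them.

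Without induction, all 10 genes held summits of both marks, and most had Pol II summits among the highest in the list. By the highest summit in the gene or within 1 kb of it, JUND led with a Pol II fold of 50.6, followed by JUNB at 50.5, FOS at 47.4, IER3 at 46.1, JUN at 45.8 and EGR1 at 45.03. These 6 stood between the 97.1 and 99.2 percentiles of the 14526 genes with a Pol II summit. FOSL2 had 35.8, IER2 had 32.9, FOSL1 had 31.7 and FOSB had 22.3, which put FOSB at the 43.0 percentile. H3K27ac ran in another order. JUND had the highest H3K27ac fold among the 10 genes, 34.0, and FOS the lowest, 11.2, at the 15.6 percentile of the genes with an H3K27ac summit. FOS, the gene with the third strongest Pol II summit of the group, thus had the lowest H3K27ac fold by this measure. The measure takes the highest summit anywhere in the gene or within 1 kb, and the FOSB value of 21.7 comes from inside that gene. The H3K27ac summit before the FOSB start, at -0.541 kb, had a fold of 8.37.

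**Figure D1:**
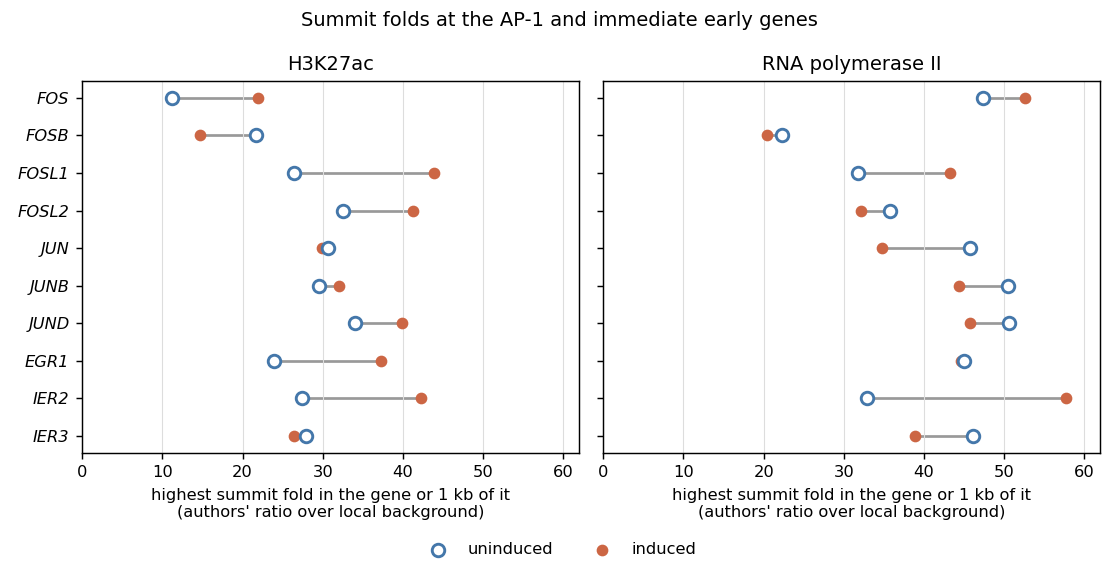
Highest H3K27ac (left) and Pol II (right) summit fold in each gene or within 1 kb of it; open circles are the uninduced list, filled circles the induced list, 1 list per condition. H3K27ac of FOS, FOSL1, EGR1 and IER2 lies further right with induction and that of FOSB further left (21.7 and 14.7), while for Pol II the widest step is that of IER2 (32.9 and 57.7).

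The highest Pol II summit sat just inside the gene at the promoter-proximal position in 5 of the 8 genes with a known strand. Measured from the 5′ end, it lay at 31 bp without and 47 bp with induction in FOS, at 25 and 39 bp in JUN, at 50 and 49 bp in JUNB, at 56 and 57 bp in JUND, and at 46 and 39 bp in EGR1. In these genes the summit barely moved between the lists. In FOSL2 the highest summit was at 6 bp without and at -251 bp with induction. FOSB had a pair of summits in both lists. Without induction the one at 1525 bp, inside the gene, had a fold of 22.3 and the one at -0.005 kb 21.6, and with induction the one at -17 bp had 20.4 and the one at 1.58 kb 14.5. In IER2 it stood well inside the annotated gene in both lists, at 2692 and 2676 bp. FOSL1 had it close to its upper end, 8302 and 8296 bp from the lower end of a gene of 8497 bp. The annotated start of IER2 lies 36 bp from that of STX10, a gene on the minus strand. Signal at the IER2 start may therefore belong to either gene.

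Pol II summits at the FOS genes differed in direction with induction. FOS encodes the founding FOS protein, and its Pol II fold was 47.4 without and 52.6 with induction. FOSB, which encodes a close relative with a truncated splice form, had 22.3 and 20.4. FOSL1 encodes FRA1, the FOS protein of invasive tumour cells, and its Pol II fold was 31.7 and 43.3. FOSL2 encodes FRA2 and had 35.8 and 32.2. The FOSL2 values come from different summits, at 6 bp without and -251 bp with induction. The induced FOSL2 summit at 0.068 kb had a fold of 20.4. By highest summits, the highest ratio of induced to uninduced among the FOS genes was that of FOSL1, 1.36. Divided by the median ratio of all genes (0.938) it was 1.45, under the 1.5 used for a count. The FOSL1 value depends on the summits taken: a summit 1.34 kb below the gene, inside the neighbouring gene CCDC85B, had a fold of 48.2 without induction, and with summits within 5 kb the log2 ratio over the median went from 0.54 to -0.06.

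The JUN genes, whose products can pair with FOS proteins or with each other, all had lower Pol II folds in the induced list. JUN had 45.8 without and 34.7 with induction, JUNB 50.5 and 44.3, and JUND 50.6 and 45.8. Against the median of all genes these were log2 ratios of -0.31 for JUN, -0.10 for JUNB and -0.05 for JUND, so JUNB and JUND stood close to the whole list. EGR1, a zinc finger transcription factor and a classical serum response target, had 45.03 and 44.6. IER2, a small nuclear protein gene, went from 32.9 to 57.7, a ratio over the median of 1.87. IER3, which encodes a survival factor also known as IEX-1, had 46.1 and 38.9. These are different summits. The uninduced one lay 1288 bp above the lower end of IER3, and the induced one 444 bp below that end, on the side of FLOT1. The induced summit at 1290 bp had 38.6. In all, 1 of 10 genes was past 1.5 upward and 0 downward, against 7.38% and 7.91% of the 14119 genes with a Pol II summit in both lists. The log2 ratio of IER2 was 0.90 in each alternative, past 1.5 and under a threshold of 2.

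H3K27ac at FOS was higher and at FOSB lower in the induced list. FOS had a highest fold of 11.2 without and 22.0 with induction, a ratio over the median of all genes (1.108) of 1.77. The same FOS region also held a summit of 16.4 in the uninduced list, at -1.39 kb, and with summits within 5 kb the log2 ratio over the median was 0.27 in place of 0.82. The FOS promoter summit lay at -144 bp without and -153 bp with induction. FOSB had 21.7 and 14.7, a ratio over the median of 0.609. Its summit lay at 1628 and 1634 bp, within the gene. The weaker FOSB summit before the start had 8.37 without and 11.2 with induction. With summits within 5 kb the FOSB log2 ratio was -0.37 in place of -0.71, since a summit downstream of the gene then gave the highest fold in both lists (23.4 and 20.05).

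FOSL1 had an H3K27ac fold of 26.5 without and 43.9 with induction, a log2 ratio over the median of 0.58, just inside the threshold. FOSL2 had 32.5 and 41.3, from different summits, at 337 bp without and -446 bp with induction. EGR1 had 23.9 and 37.3, a ratio over the median of 1.41, and IER2 27.4 and 42.3, a ratio of 1.39. The IER2 values come from different summits, at 354 bp without and 3532 bp with induction. Its uninduced summit at 3536 bp had a fold of 20.1. By the highest fold, FOSL1, EGR1 and IER2 thus stood under 1.5, FOSL1 the nearest to it. JUN had 30.6 and 29.9, JUNB 29.5 and 32.0, JUND 34.0 and 39.9, and IER3 27.9 and 26.4. Different summits also gave the values of JUNB (848 and 361 bp) and JUND (376 and -735 bp). The count past 1.5 was 1 upward (FOS) and 1 downward (FOSB), against 5.94% and 6.89% of the 14791 genes with a summit in both lists. When the summit of highest −log10 q was taken in place of the highest fold, IER2 was also past 1.5, with a log2 ratio of 0.92. That choice compares the IER2 summits at 3536 and 3532 bp.

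The genes differed in how far Pol II regions extended along them. The share of the gene length covered by Pol II regions was 100% in both lists for JUNB, JUND, IER2 and IER3, short genes that lie wholly inside 1 region. Only 3.40% of the 14456 covered genes were covered whole without induction. FOS, only 3403 bp long, was covered to 17.1% without and 14.5% with induction, JUN to 26.6% and 21.4%, and EGR1 to 29.6% and 15.9%. In these 3 genes the Pol II region ended within 1 kb downstream of the start, although their summit folds lay within the range of the fully covered genes (32.9 to 50.6). FOSB was covered to 35.8% and 27.7%, FOSL2 to 28.0% and 17.5%, and FOSL1 to 96.0% and 92.1%.

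All 6 genes that were covered in part without induction were covered less with it, against 79.2% of all such genes, which is 6 of 10 against 76.9% of all covered genes. The differences were -13.6 percentage points for EGR1, -10.5 for FOSL2, -8.06 for FOSB, -5.19 for JUN, -3.87 for FOSL1 and -2.64 for FOS. Past 5 points, 4 of 10 genes were lower and 0 higher, against 15.2% and 1.51% of all covered genes. JUN, at -5.19, was only just past the threshold, and the median difference of all covered genes was -0.50. A point is a percent of the gene's length, so 5 points are fewer bases in a shorter gene. No background of genes of like length was computed. At FOSB the single uninduced region from the promoter to 2.57 kb was listed as 2 regions with induction, with folds of 20.4 and 14.5. At EGR1 the difference included a weak region of 297 bp near the gene's end, with a fold of 2.46, listed only without induction. With regions of −log10 q of at least 5, or with lists of equal length, the EGR1 difference was -5.86 points. With the stricter q the FOSL1 difference was -10.4 points and the FOSL2 difference -15.7, and with lists of equal length the FOSL1 difference was 0.01.

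**Figure D2:**
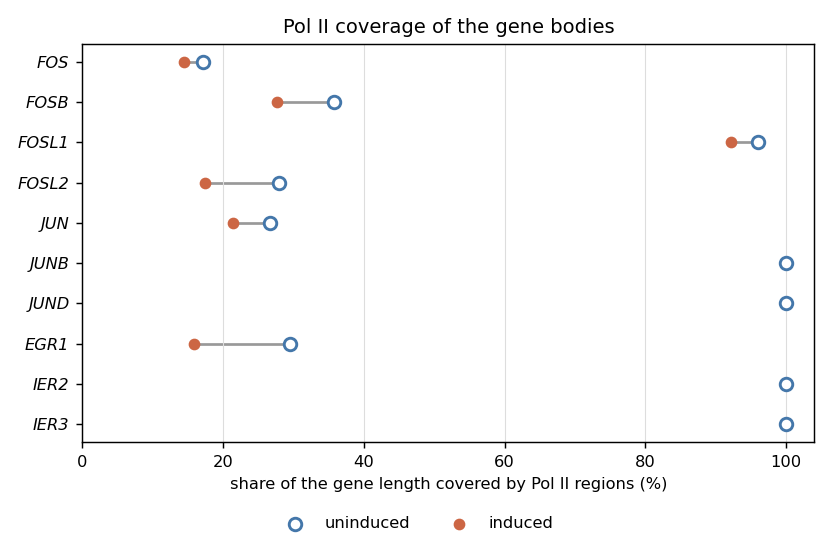
Share of each gene's length covered by Pol II regions, in percent; open circles are the uninduced list and filled circles the induced list. JUNB, JUND, IER2 and IER3 sit at 100% in both lists, and the other 6 genes sit further left with induction, EGR1 by 13.6 points.

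Pol II ran past the 3′ end in 6 of the 8 genes with a known strand. The distance was taken from regions at the 3′ end or within 1 kb of it, joined over gaps of up to 1 kb. It reached 1 kb or more in 6 genes without and 5 with induction, against 37.4% and 32.8% of the 11764 covered genes with a strand. FOSL2 had the longest run without induction, 13568 bp, led by a region of 8074 bp with a fold of 10.3 that began just before the end of the gene. In the induced list the FOSL2 run was 0 bp, because the signal there was listed as shorter regions and the nearest began over 1 kb downstream. With gaps of up to 3 kb joined, the induced FOSL2 run was 8907 bp. The next largest differences were at JUNB and JUND. JUNB had 9418 bp without and 5227 bp with induction. Its Pol II joins JUNB with HOOK2, the overlapping gene of a microtubule linker, and reaches into PRDX2, which encodes a peroxiredoxin. The uninduced run was a chain that crossed PRDX2 through regions of fold 3.70 and 3.20 listed only there. It ended in a separate place at 9.40 to 11.2 kb from the JUNB 5′ end, with folds of 39.8 and 51.3, at an end of PRDX2. JUND had 5607 and 2139 bp, reaching its neighbour IQCN only without induction. There a region of fold 4.13, listed only without induction, linked it to a place at an end of IQCN with 9.30 and 9.95. Both differences thus include whether weak regions joined the gene to Pol II at a neighbour.

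EGR1 had 2123 bp past its end without and 1840 bp with induction. The EGR1 region began 33 bp beyond the annotated end, apart from the promoter region, and its fold was 10.2 without and 5.55 with induction, the third lowest Pol II ratio over the median (0.590) of the windows. The IER2 run was 1746 and 1571 bp, and that of JUN 1091 and 1084 bp. The JUN run was a weak region beyond the annotated end, apart from the promoter region, with folds of 4.05 and 3.32. FOS and FOSB had no Pol II region at their 3′ end in either list. All 6 genes reached in both lists had a shorter run with induction, against 68.4% of the 4670 genes reached in both lists, and the differences were under 300 bp at JUN, EGR1 and IER2. For FOSL1 and IER3, both ends are given. Pol II passed the lower end of FOSL1 by 4712 and 4420 bp, across CCDC85B and into FIBP, and its upper end by 643 and 491 bp. It passed the lower end of IER3 by 2696 and 3013 bp, into FLOT1, which encodes a lipid raft protein, and its upper end by 809 and 399 bp.

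**Figure D3:**
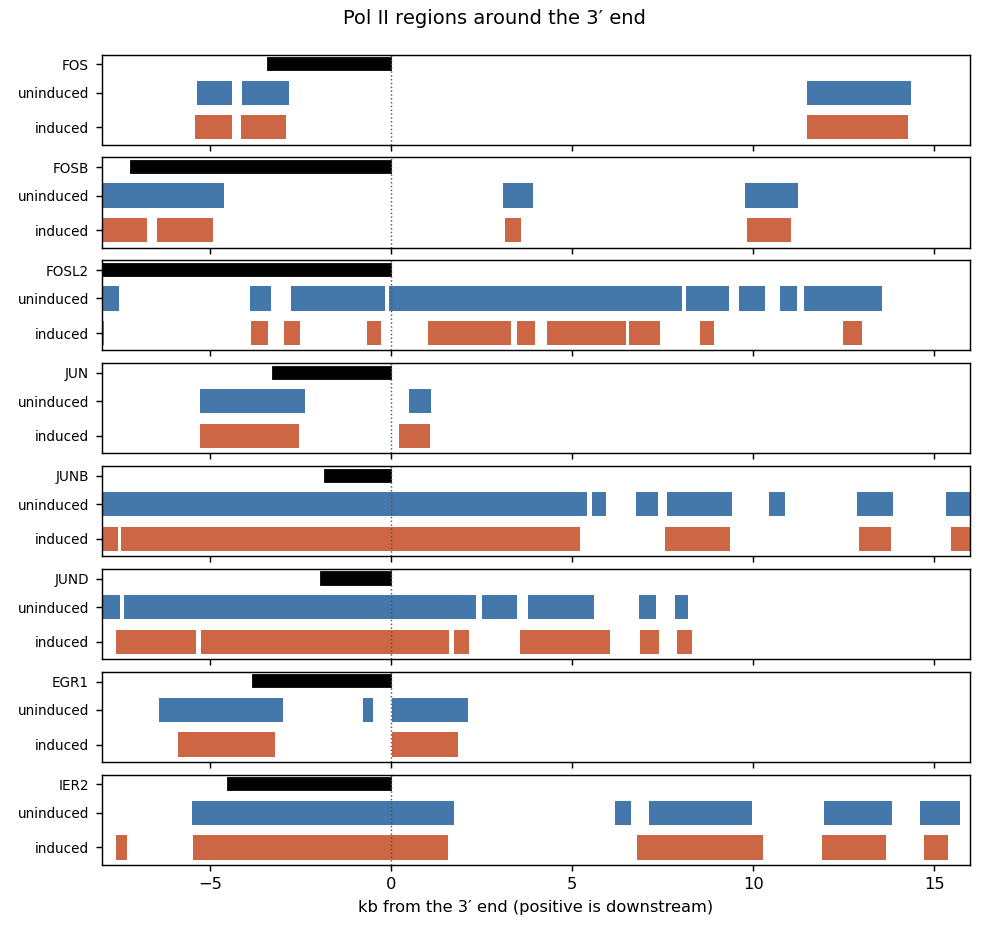
Pol II regions around the 3′ end of the 8 genes with a known strand, in kb from the 3′ end (0, dotted; positive is downstream), with the gene as a black bar and 1 lane per condition. Blue bars of FOSL2 continue to 13.6 kb past the end while the induced lane is broken, EGR1 has a separate block beginning at its end, and FOS and FOSB have none there.

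The 10 windows held 111 H3K27ac regions without and 106 with induction, and 136 and 137 Pol II regions. Most were listed in both conditions. Of the H3K27ac regions, 89.2% (95% exact binomial interval 81.9 to 94.3, counting error only) of the uninduced and 88.7% (81.1 to 94.0) of the induced were overlapped by a region of the other condition, against 85.5% and 87.7% of the whole lists. Of the Pol II regions, the shares were 76.5% (68.4 to 83.3) and 90.5% (84.3 to 94.9), against 69.6% and 89.2%. An overlapping region of the other mark was found for 71.2% of the uninduced and 66.0% of the induced H3K27ac regions, against 39.8% and 33.9% of the whole lists. For Pol II these shares were 69.9% and 70.8%, against 62.3% and 62.3%. The whole lists are not limited to windows around genes, and no share over the windows of other genes was computed. Regions without a partner in the other condition were weak, with a median −log10 q of 3.76 for uninduced Pol II against 37.4 for those with one. The strongest of them reached a fold of 4.92 for uninduced Pol II, near EGR1, and 5.18 for induced H3K27ac, near FOSL2. The H3K27ac covered length ran from 0.948 of the uninduced length at EGR1 to 1.15 at JUN. It was longer with induction in 8 of 10 windows, against 44.1% of all genes, and past 1.5 in none, against 1.58% of all genes longer and 3.74% shorter. The Pol II length was shorter in 8 of 10 windows, against 92.2% of all genes. It was 0.653 of the uninduced at FOSL2, 1.0 at FOS and 1.02 at JUN, and the median of all genes was 0.826.

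Overlapping regions of both conditions were joined into places so that each could be followed, a measure added after the data were seen. There were 109 H3K27ac places, 85 in both lists, 12 only without and 12 only with induction, against 25.4% of all places listed in a single condition. Of the 85, 9 were over and 4 under the median ratio by more than 1.5 times, against 9.07% and 11.5% of all such places. Of 143 Pol II places, 98 were in both lists, 32 only in the uninduced and 13 only in the induced list, against 38.1% of all in a single condition. Of the 98, 7 were over and 5 under, against 7.4% and 8.25%. Distances below are in kb from the 5′ end, negative upstream.

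FOS, FOSL2 and JUN have no other protein-coding gene within 50 kb, so their windows show distal elements most plainly. The strongest H3K27ac place of the FOS window was not its promoter but an intergenic element at 14.6 to 18.0 kb, with a fold of 27.8 without and 24.4 with induction and Pol II folds of 22.2 and 19.0. A second FOS element, at -20.8 to -18.95 kb, had 17.9 and 11.9, and Pol II folds of 17.3 and 12.3. A small place further out, at -24.9 to -23.4 kb, had 3.22 and 6.10. Of the 5 H3K27ac places of the FOS window, 2 stood above the median ratio of all places, the promoter and this small place, and 3 below it.

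JUN had its strongest distal element at -33.7 to -28.6 kb, with an H3K27ac fold of 24.2 without and 30.2 with induction, and Pol II folds of 18.6 and 24.7. The Pol II fold of this element was higher in the induced list while that of the JUN promoter was lower (45.8 and 34.7). A further JUN place at -42.3 to -38.8 kb had an H3K27ac fold of 7.31 and 13.7, a ratio over the median of 1.80, and a Pol II region of fold 3.36 was listed there only with induction. Downstream, at 27.5 to 29.8 kb, H3K27ac had 10.1 and 12.9. At the JUN promoter the single uninduced H3K27ac region was listed as 2 with induction, which left 66.0% of the promoter window covered.

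FOSL2 carried the most distal acetylation of these 3 genes. An upstream domain at -37.7 to -30.4 kb had an H3K27ac fold of 34.7 without and 33.2 with induction, close to that of the FOSL2 promoter region (37.8 and 41.3). A place at -27.8 to -24.7 kb had 21.3 and 19.0, one inside the gene at 11.7 to 19.2 kb had 17.4 and 26.1, and one downstream at 42.3 to 45.7 kb had 22.1 and 25.7. None of the FOSL2 places in both lists was past 1.5 in either mark.

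**Figure D4:**
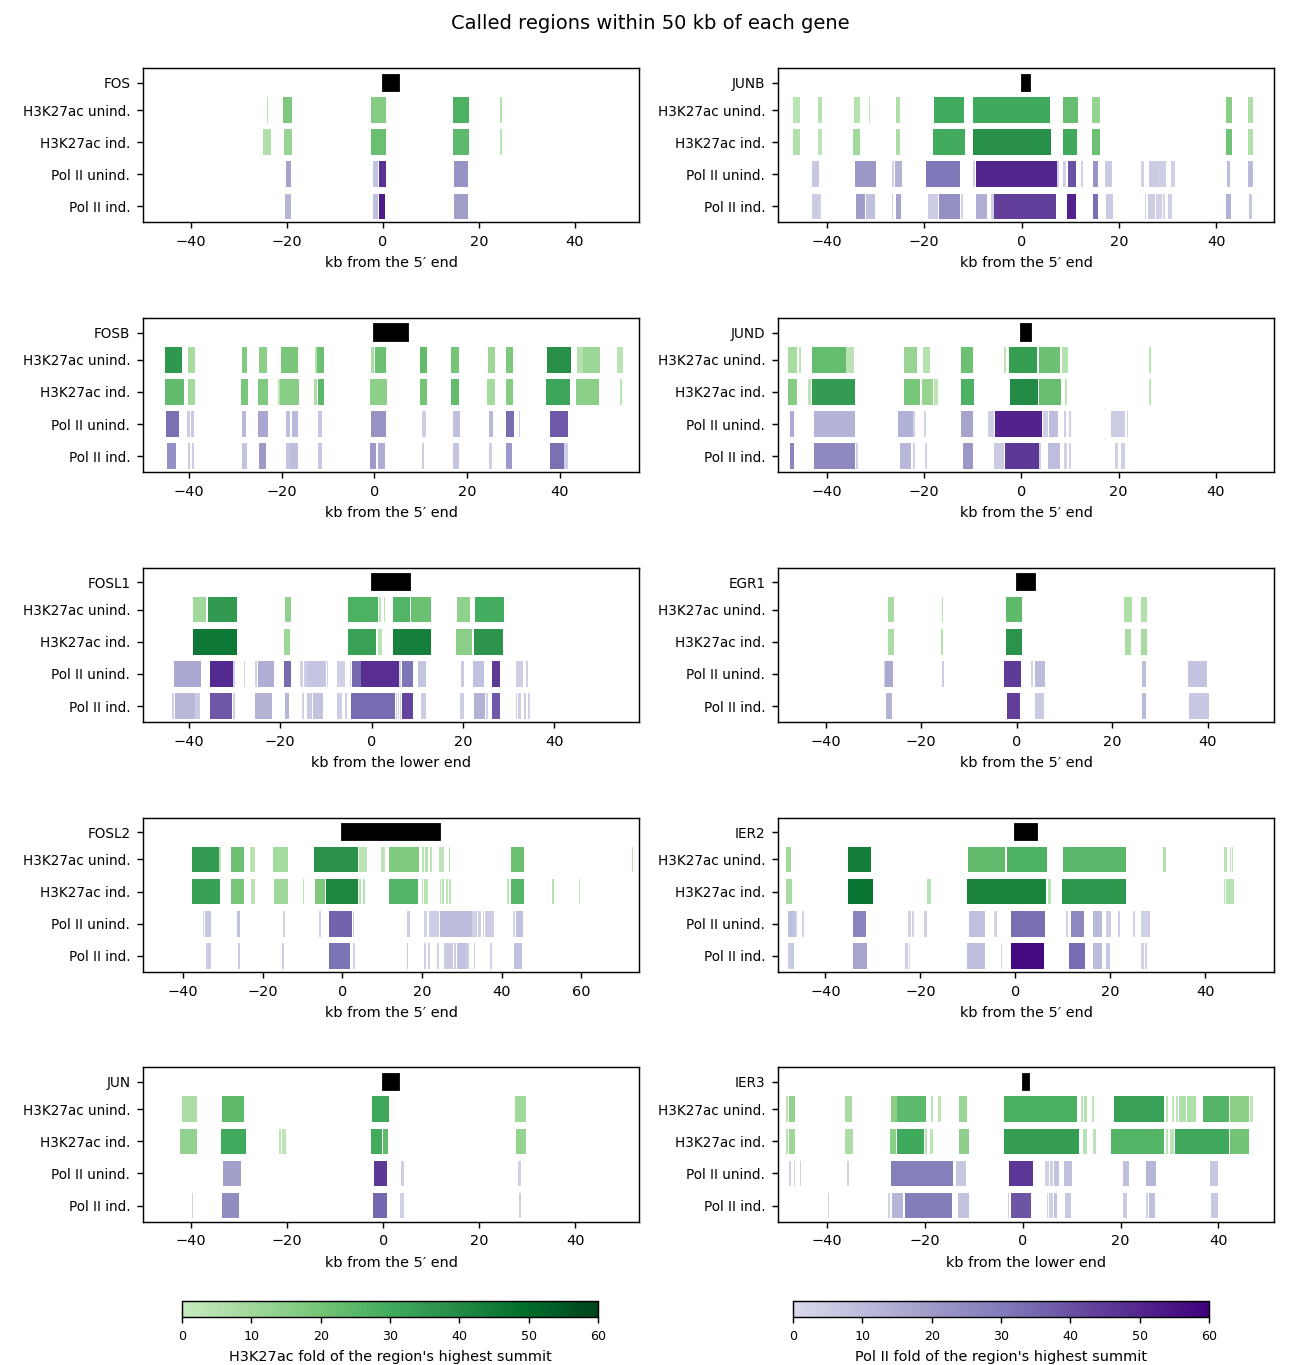
Called regions of both marks (green H3K27ac, purple Pol II, darker for higher fold) in the gene and 50 kb either side, in kb from the 5′ end, or from the lower end for FOSL1 and IER3, with the gene as a black bar and 4 lanes per gene. FOS, JUN and EGR1 stand among few regions, while FOSL1, JUNB and IER3 lie in windows crowded with regions of both marks.

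The other 7 windows hold 36 further protein-coding genes, 10 at FOSL1, 8 at JUNB, 4 each at FOSB, JUND and IER2, and 3 each at EGR1 and IER3, so a region there may belong to a neighbour. In the FOSB window, H3K27ac inside ERCC1, a DNA repair gene, had 36.1 without and 23.4 with induction at -45.2 to -41.2 kb. That place and the FOSB gene itself were the 2 H3K27ac places of the window under the median ratio by over 1.5 times. Downstream of EGR1, a place at 26.0 to 27.3 kb had an H3K27ac fold of 6.21 and 8.77 with Pol II folds of 10.0 and 11.0. IER2 had a broad intergenic domain at 9.77 to 23.3 kb, with an H3K27ac fold of 24.8 without and 35.8 with induction and Pol II folds of 25.5 and 33.5. IER3 had a comparable domain at 18.1 to 28.9 kb from its lower end, with 32.8 and 26.1. The IER3 domain had a higher H3K27ac fold than the gene's own region without induction (27.9) and a lower one with it (33.9), and the IER2 domain a lower one than its gene in both lists.

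JUND had the widest H3K27ac step of all windows, at -20.3 to -18.2 kb, with a fold of 4.55 without and 12.2 with induction, a ratio over the median of 2.58. Its neighbour LSM4, which encodes a subunit of the LSm ring of RNA processing, had a Pol II fold of 12.6 and 25.3. In the JUNB window RNASEH2A, the catalytic subunit gene of ribonuclease H2, had 22.0 and 33.0 for Pol II and 12.6 and 21.7 for H3K27ac. In the FOSL1 window the lowest Pol II ratio was near an end of EFEMP2, an extracellular matrix gene, with 34.3 and 12.0. MUS81, a DNA repair endonuclease gene of the same window, went the other way, with 15.8 and 32.5 for Pol II and 19.4 and 45.8 for H3K27ac. The highest summits of JUND and JUNB themselves stood near the median ratio of all genes in both marks.

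Genes of the same network were counted by the same thresholds. Of 15 AP-1 partners (ATF, BATF, JDP2, MAF and NRL genes), 14 were covered by Pol II, with 2 lower by over 5 points and 0 higher, a share near the 15.2% of all covered genes. NRL, a retinal MAF protein gene, had the widest difference, from 43.4% to 27.9%, and MAFG, a small MAF gene, had 41.0% and 33.8%. Other genes overlapping or next to the genes of these lists were not looked up, so Pol II within a span may belong to another gene. BATF2 had a difference of -4.82 points. ATF4, the factor of the integrated stress response, had H3K27ac folds of 24.7 and 45.4, and MAFF had 32.0 and 22.9.

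Of 40 other immediate early genes, 39 were covered, with 12 lower by over 5 points and 0 higher. GADD45B, a stress response gene, was covered to 57.6% and 37.4%, ZFP36L2, an mRNA decay factor, to 85.8% and 67.0%, CCN1, a secreted matrix protein, to 37.1% and 20.2%, and DUSP6, the phosphatase of ERK, to 88.5% and 75.7%. As a share, 12 of 39 and 4 of 10 both stood above the 15.2% of all covered genes. The median difference was -2.14 points over these genes, -3.26 over the 10 described here and -0.50 over all covered genes. All covered genes were not matched to these sets in length, on which the points depend, so a part of gene length in these differences was not tested. The highest summits of these genes went both ways, with 4 over and 7 under the median ratio by more than 1.5 times for Pol II, against 7.38% and 7.91% of all genes. For H3K27ac 1 was over and 0 under, against 5.94% and 6.89%. DUSP6 had a Pol II fold of 22.5 and 32.6 and H3K27ac folds of 19.9 and 37.4. BTG2, an antiproliferative gene, had 33.3 and 52.3 for Pol II and 18.5 and 30.3 for H3K27ac. DUSP6 thus had a higher highest summit of both marks and a smaller covered share of the gene in the induced list.

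Of 22 upstream factors and kinases, 4 were lower by over 5 points and 0 higher, again a share near the 15.2% of all covered genes. ETS2, an ETS factor, was covered to 36.3% and 18.6%, MAPK3 (ERK1) to 28.0% and 18.0%, SRF, the serum response factor, to 26.5% and 18.9%, and MAP2K2 (MEK2) to 18.9% and 13.6%. MAP2K1 (MEK1) had H3K27ac folds of 17.3 and 34.9, and MAPK9 (JNK2) 45.1 and 30.04. Of 20 AP-1 target genes, 15 were covered, with 1 lower by over 5 points and 0 higher, a share below the 15.2% of all covered genes. That gene was AREG, which encodes the EGF receptor ligand amphiregulin, covered to 53.6% and 40.8%, with H3K27ac folds of 31.2 and 17.4 and Pol II folds of 54.0 and 34.7. EREG, the neighbouring EGF receptor ligand, was covered to 42.4% and 44.4%, and CXCL8, which encodes interleukin-8, to 7.37% and 4.86%.

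The genes nearest to the median of the 10 in the 4 highest summit folds, by Euclidean distance on the log2 scale among 13643 genes with all 4, were R3HDM2, DDX5, CEP95, NUFIP2 and PLSCR3, at distances from 0.08 to 0.13. DDX5 and CEP95 are neighbours with the same highest summits. R3HDM2 had H3K27ac folds of 29.0 without and 33.9 with induction and Pol II folds of 44.6 and 43.7.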

How the data were processed

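H3K27ac and Pol II were measured by ChIP-seq in DLD1 cells, 75 bp reads at 40 to 55M per sample per the labels. Per the submitters' processing notes, the tools included BWA 0.7.17-r1188, SAMtools 1.10 and MACS2 2.1.1.20160309. The authors' deposited peak lists give a fold (ratio over local background) and −log10 q per summit, starting at a −log10 q of 1.30. Caller settings and any pooling were not given in the sources used here. Positions are on GRCh38: chromosome 17 regions reach 83228308. Rows of a region were collapsed to its highest fold. Summits on other chromosomes than the autosomes and X were dropped (0.603% of a list or less). Strand was known for 79.2% of genes, from the promoter table. Ratios were divided by the median over all genes. The named genes follow a fixed rule: all 10, their neighbours, up to 4 genes per list by coverage and 2 by H3K27ac ratio, and 5 by likeness. Marker genes stand outside this rule, and those named were chosen after their values were seen. Some genes that the rule names are not reported here. The members and lists were chosen with earlier results of these data known. Measures were tested on simulated lists (Python 3.11.15, pandas 2.3.3).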

Additional observations from a re-analysis of the deposited data

How the results depend on the processing

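No paired analysis was possible because each condition has 1 list for both of its samples, and for the same reason no replicate could be left out. Of the alternatives to the counts and shares over the 10 genes, 58 changed little and 16 moved. A count changed little if it was unchanged or within 1.5 times of the main count. A share did so if it lay inside the 95% exact interval of the main share, so these limits are wide. Genes with lower Pol II coverage numbered 2 with a threshold of 10 points in place of 5. Past a ratio of 2 in place of 1.5, 0 genes were counted for either mark in either direction. With H3K27ac summits within 5 kb, 0 genes were over and 0 under. With the summit of highest −log10 q, 2 were over. With whole joined regions, an alternative chosen after seeing the data, 0 were over. Among regions with −log10 q of at least 5, 94.3% of uninduced and 95.2% of induced H3K27ac regions were overlapped. Counting regions within 1 kb as shared gave 96.4% and 94.3% for H3K27ac and 89.7% and 98.5% for Pol II, and asking for most of the region (50% or more of its length) to be covered gave 68.4% for uninduced Pol II. Without joining regions, 3 genes had Pol II 1 kb or more past the 3′ end with induction. The cause of these moves was not tested. The lists give no read counts, so depth at a gene is unknown.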

Other observations

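FOS, JUN and EGR1 combined a strong promoter summit with a short Pol II region, and other short genes were looked up by a rule set after these values were seen. Of 44 genes of 3 to 5 kb with a Pol II fold of at least 45 without induction, 10 were covered to under 30% of their length, these 3 among them. The others included TUBB2A, a tubulin gene, at 13.7%, the homeobox gene MSX1 at 17.1% and the splicing factor gene SRSF5 at 20.7%. The median of the 44 was 69.7%. With induction, coverage was higher at TUBB2A (19.3%), MSX1 (20.5%), CBLN3 (13.4% and 18.1%) and ANKRD37 (16.02% and 16.6%). It was lower at FOS (14.5%), JUN (21.4%) and EGR1 (15.9%), and also at FAM43A (19.1% and 16.1%), PTMS (29.1% and 24.5%) and SRSF5 (20.4%).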
